A study of Mus musculus with 6 samples.

Results

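Macrophages can adopt different activation states, and 9 genes that are widely used to tell those states apart were followed here in single cells: Arg1, Nos2, Mrc1, Retnla, Chil3, Msr1, Trem2, Gpnmb and Mgl2. They were chosen by gene symbol, and 9 of 9 were found among the 31053 genes of the count matrices. YUMM2.1, a line of mouse melanoma cells, is the source named for the samples, and the labels give Bmal1 status as the variable, with one group carrying an Empty vector and the other Bmal1 WT. Each group was 1 droplet library that pooled 3 replicates marked with hashtag antibodies: h1, h7 and h8 for Empty vector, and h3, h5 and h9 for Bmal1 WT. Group and droplet library cannot be told apart, and nothing in the labels says whether the 3 hashtags of a group were separate animals or cultures, so the spread between them may be technical.

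Arginase 1, encoded by Arg1, and inducible nitric oxide synthase, encoded by Nos2, compete for the same amino acid, arginine, and are the classical pair used to set alternative against inflammatory activation. Interleukin-4 and interleukin-13 signal through STAT6 and are known to induce Arg1, Mrc1, Retnla, Chil3 and Mgl2 in mouse macrophages, while interferon-γ and bacterial products induce Nos2. Msr1, Trem2 and Gpnmb are linked to uptake and handling of lipids and debris. C1qa, C1qb and C1qc, which encode the chains of complement C1q, are abundant in mature tissue macrophages and low in fresh monocytes, and Csf1r encodes the receptor for the growth factor that maintains both.

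The upstream sequences of Mrc1, Retnla and Trem2, which were called between C1q-high and C1q-low cells, are shown first, together with that of Mgl2, whose difference depended on the cells included. RefSeq promoters on GRCm38.p6 matched 6 of the 9 genes (Mrc1, Retnla, Trem2, Chil3, Gpnmb and Mgl2). Printed are the 250 bases before the start that RefSeq annotates, 5′ to 3′ on the strand of the gene, which is the plus strand for these 4. The gene positions given further on are from GENCODE, whose start lies inside the printed window for Mrc1, Retnla and Mgl2. Capitals mark matches on either strand to a STAT6-type motif (TTC and GAA separated by 4 bases of any kind), an E-box (CACGTG, the site that Bmal1 and its partner bind), a PU.1-type motif (GAGGAAG) or an AP-1-type motif (TGANTCA), and no matches overlapped one another.
Mrc1, chr2:14229164-14229413: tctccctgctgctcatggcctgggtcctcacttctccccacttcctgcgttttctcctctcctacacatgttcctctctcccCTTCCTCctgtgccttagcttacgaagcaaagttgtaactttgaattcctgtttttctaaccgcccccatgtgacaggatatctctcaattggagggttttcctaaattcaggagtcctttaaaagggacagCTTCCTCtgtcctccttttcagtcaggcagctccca
Retnla, chr16:48842359-48842608: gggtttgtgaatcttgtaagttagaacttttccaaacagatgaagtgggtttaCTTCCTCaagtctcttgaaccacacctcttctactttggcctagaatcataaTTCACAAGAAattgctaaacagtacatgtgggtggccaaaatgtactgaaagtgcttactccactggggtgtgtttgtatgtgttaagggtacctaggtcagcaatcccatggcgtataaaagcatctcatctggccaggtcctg
Trem2, chr17:48346151-48346400: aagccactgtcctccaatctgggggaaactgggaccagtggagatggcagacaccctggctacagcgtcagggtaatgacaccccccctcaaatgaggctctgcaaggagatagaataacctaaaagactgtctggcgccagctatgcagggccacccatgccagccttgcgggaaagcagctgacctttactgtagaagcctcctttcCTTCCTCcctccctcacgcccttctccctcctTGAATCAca
Mgl2, chr11:70130107-70130356: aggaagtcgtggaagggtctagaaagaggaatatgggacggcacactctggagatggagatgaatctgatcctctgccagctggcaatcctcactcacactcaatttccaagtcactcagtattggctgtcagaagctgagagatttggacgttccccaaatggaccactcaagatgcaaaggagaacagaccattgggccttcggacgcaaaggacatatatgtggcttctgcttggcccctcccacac
The PU.1-type motif, in its reverse form CTTCCTC, occurred 168 and 36 bases before the start of Mrc1, 197 bases before that of Retnla and 41 bases before that of Trem2, and 10.6% of 32851 mouse promoters held it in the same window. Retnla also held 1 STAT6-type match, which begins 145 bases before its start and was present in 5.85% of all promoters. Trem2 held 1 AP-1-type match (6.75% of promoters). No E-box lay in any of the 6 windows, against 6.02% of all promoters, and Mgl2, Chil3 and Gpnmb held none of the 4 motifs.

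After filtering, 3978 Empty vector and 2386 Bmal1 WT cells were kept, with a median of 5094 and 7570.5 UMIs per cell, a UMI being 1 counted transcript molecule. Cells with at least 1 Csf1r UMI numbered 1065, of which 972 carried exactly 1 hashtag (624 Empty vector and 348 Bmal1 WT), and the summed depth of a hashtag in these cells was between 825924 and 3124890 UMIs. Of the 972 cells, 159 had at least 5 C1q UMIs and are called C1q-high, and 813 had fewer and are called C1q-low. Although the labels name a melanoma line, most cells fell into clusters with markers of T cells, NK cells, macrophages and dendritic cells, and 1 cluster of 428 cells was melanoma-like. Among 1428 T cell-like cells, which gauge free RNA, 1.96% held an Arg1 UMI, at most 0.63% held one of any other member, and 0 held Nos2, Mrc1 or Retnla, a count that allows a share of up to 0.210%. Of the 28 cells with Arg1, 5 held 10 or more UMIs and 1 held 85 of the 256, so the Arg1 share does not gauge free RNA alone. Here and below the limit set by a count of 0 is taken as 3 counts, and such limits and all intervals cover counting error only.

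The macrophage or monocyte-like clusters divided the genes between them, which is a description, since the genes took part in the clustering. Nos2 was concentrated in cluster 3 (165 CPM, that is, counts per 1000000 UMIs, with 24.6% of cells holding a UMI), which held 86.4% of all Nos2 UMIs in the data, and between hashtags its level there ran from 87.2 to 459 CPM. Cluster 3 was also the first cluster for Gpnmb (104 CPM), Arg1 (2940 CPM) and Msr1 (418 CPM). The ranges of Arg1 over hashtags in clusters 3 and 5 overlapped (2141 to 3748 and 846 to 3654 CPM), so their order is within the spread. Retnla, Mrc1 and Trem2 had their highest level in cluster 22 (2159, 511 and 182 CPM) and their next in cluster 5 (241, 155 and 92.5 CPM). Cluster 22 was small and shallow, with 13 Empty vector and 39 Bmal1 WT cells at a median of 1585 UMIs, and these levels pool both libraries, whose shares differed between clusters. Ctsk, Mmp9, Acp5 and Atp6v0d2 were among its leading genes, beside Retnla, Ccl24 and the C1q genes, so it may differ from other macrophages. Chil3 led in cluster 12 (1362 CPM), which stayed unnamed because Ace and Adgre4 were among its leading genes, followed by cluster 5 (908 CPM). Mgl2 stood apart: its first cluster was the dendritic cell-like cluster 1, where 96.5% of 172 cells held a UMI and which accounted for 71.9% of all Mgl2 UMIs.

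**Figure D1:**
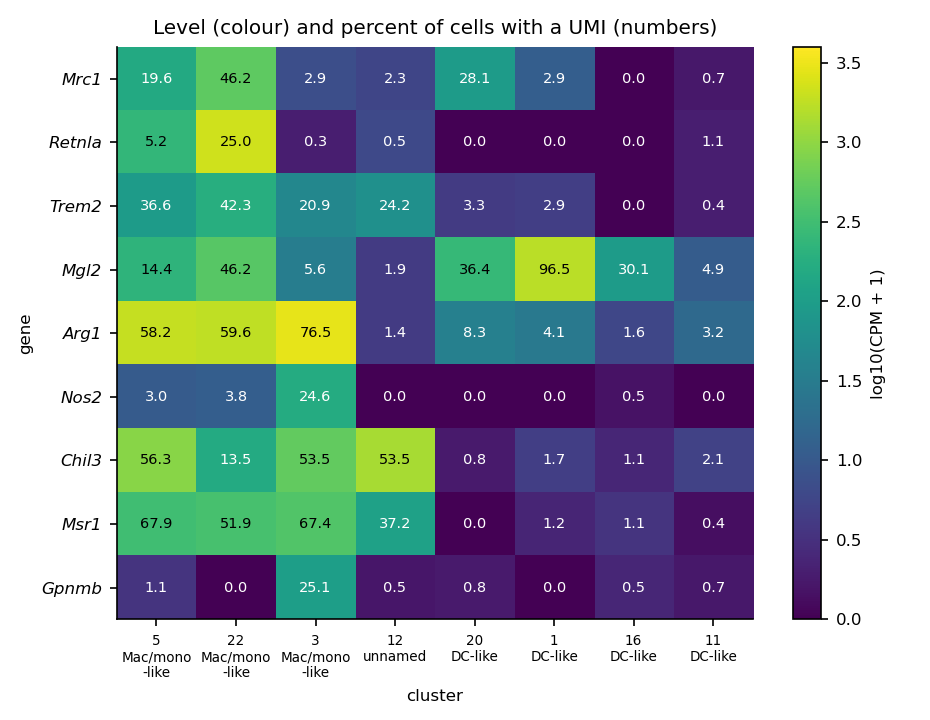
Level of the 9 genes (rows) in 8 myeloid clusters (columns), with colour giving log10(CPM + 1) over all kept cells of both libraries and the numbers giving the percent of cells with at least 1 UMI. Nos2 and Gpnmb are highest in cluster 3 (with a UMI in 24.6% and 25.1% of cells), Retnla is highest in clusters 22 and 5, and Mgl2 is in 96.5% of the cells of cluster 1.

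C1q-high cells expressed more Mrc1 and Trem2 than C1q-low cells of the same hashtag, and both genes passed the test. Retnla passed it too, but had only 48 UMIs in all C1q-low cells and entered the test, which asked for 100, through the C1q-high cells, so its p is given without weight. Across all genes 9.63% of 7770 were called in this comparison, 3.08% higher and 6.55% lower. The test was edgeR's quasi-likelihood test on UMIs summed per hashtag and C1q class, with the hashtag as a block and Benjamini-Hochberg adjustment over all genes tested. The classes also held different mixtures of clusters. Cluster 5 made up 73.5% (Empty vector) and 64.5% (Bmal1 WT) of C1q-high cells, against 43.8% and 31.25% of C1q-low cells. The unnamed cluster 12 held 15.2% and 26.1% of C1q-low cells, but 1.2% of C1q-high Empty vector cells. The dendritic cell-like cluster 20 held 9.61% and 4.78% of C1q-low cells. Differences between classes are thus between mixtures, and the part of cluster 12 in them was not tested.

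Mrc1 (chr2:14229392-14332057, plus strand) encodes the mannose receptor CD206, which takes up glycoproteins. In C1q-low cells its level was 39.3, 156 and 10.4 CPM in Empty vector h1, h7 and h8, and 4.61, 49.8 and 29.2 CPM in Bmal1 WT h3, h5 and h9. In C1q-high cells it was 142, 475 and 191 CPM in Empty vector and 188, 483 and 201 CPM in Bmal1 WT. The level was higher in the C1q-high cells of 6 of 6 hashtags, with h7 and h5 the highest of their groups in both classes. The log2 difference was 2.93 ± 0.37 (SE, n = 6 hashtags, edgeR adjusted p = 8.98e-04).

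Trem2 (chr17:48346401-48354147, plus strand) encodes a lipid-sensing receptor of phagocytes. It was at 48.7, 52.9 and 29.98 CPM in the C1q-low cells of Empty vector h1, h7 and h8, and at 132, 218 and 125 CPM in their C1q-high cells. In Bmal1 WT h3, h5 and h9 the C1q-low cells had 50.2, 21.7 and 87.6 CPM and the C1q-high cells 112, 133 and 127 CPM. Every hashtag was higher in its C1q-high cells, and the log2 difference was 1.61 ± 0.23 (SE, n = 6 hashtags, edgeR adjusted p = 0.00142).

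Retnla (chr16:48842551-48844461, plus strand) encodes the secreted protein RELMα. Its C1q-high cells held 1, 133 and 0 UMIs in Empty vector h1, h7 and h8 (2.09, 439 and 0 CPM) and 762, 638 and 47 UMIs in Bmal1 WT h3, h5 and h9 (1553, 942 and 193 CPM). The C1q-low cells of Empty vector held 0, 43 and 0 UMIs, and those of Bmal1 WT held 2, 3 and 0. Retnla was thus higher in the C1q-high cells of 5 of 6 hashtags and at 0 in both classes of Empty vector h8, where a count of 0 allows up to 9.86 CPM in C1q-high cells. The fitted log2 difference was 6.15 ± 0.85 (SE, n = 6 hashtags, edgeR adjusted p = 0.00164), a size that depends on how the fit treats sums of 0 and a test that it entered through its C1q-high UMIs. Few cells carried the signal: 7 of 83 Empty vector and 18 of 76 Bmal1 WT C1q-high cells had a UMI, and a single cell held 465 of the 762 UMIs in h3 and 548 of the 638 in h5. Without the cell with the most Retnla in each, the level of the C1q-high cells was 647, 136 and 54.4 CPM in h3, h5 and h9.

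The calls of Mrc1, Trem2 and Retnla stood in each of 18 alternative settings, and their log2 differences ranged from 2.61 to 3.31, from 1.305 to 1.795 and from 4.86 to 10.1. For Retnla these settings are given without weight too, for the reason given above. C1q-high cells were deeper, with a median of 12154.5 to 18146.5 UMIs per hashtag against 7929 to 11086 in C1q-low cells. When the split was made at 1 C1q UMI per 1000 UMIs, so that it no longer followed depth directly, the differences were 3.07, 1.63 and 6.79.

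Mgl2 (chr11:70130329-70137550, plus strand) encodes a C-type lectin that binds galactose-type sugars and is made by dendritic cells as well as macrophages. Its C1q-low cells stood at 70.7, 913 and 183 CPM in Empty vector h1, h7 and h8, and its C1q-high cells at 48.1, 630.4 and 345 CPM. In Bmal1 WT h3, h5 and h9 the level was 189, 162 and 117 CPM in C1q-low and 687, 558 and 804 CPM in C1q-high cells. The classes overlapped in Empty vector and did not in Bmal1 WT. Over the 6 hashtags the log2 difference was 1.10 ± 0.37 (SE) and did not pass (edgeR adjusted p = 0.0912). With the cells of dendritic cell-like clusters left out, a choice made after the data were seen, it was 4.58 ± 0.71 (SE, n = 6 hashtags, edgeR adjusted p = 0.00145). Mgl2 was itself a leading gene of cluster 1, which was among those left out. That fit thus removed cells grouped in part by their Mgl2, so its size and p are given without weight. Mgl2 was also called without a filter on genes (1.10), with at least 2 Csf1r UMIs (1.64), without Empty vector h1 (1.35) and without Empty vector h7 (1.46). Reads of Mgl2 and its near-identical neighbor Clec10a may be split between them, so the level of Mgl2 is uncertain to that extent.

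**Figure D2:**
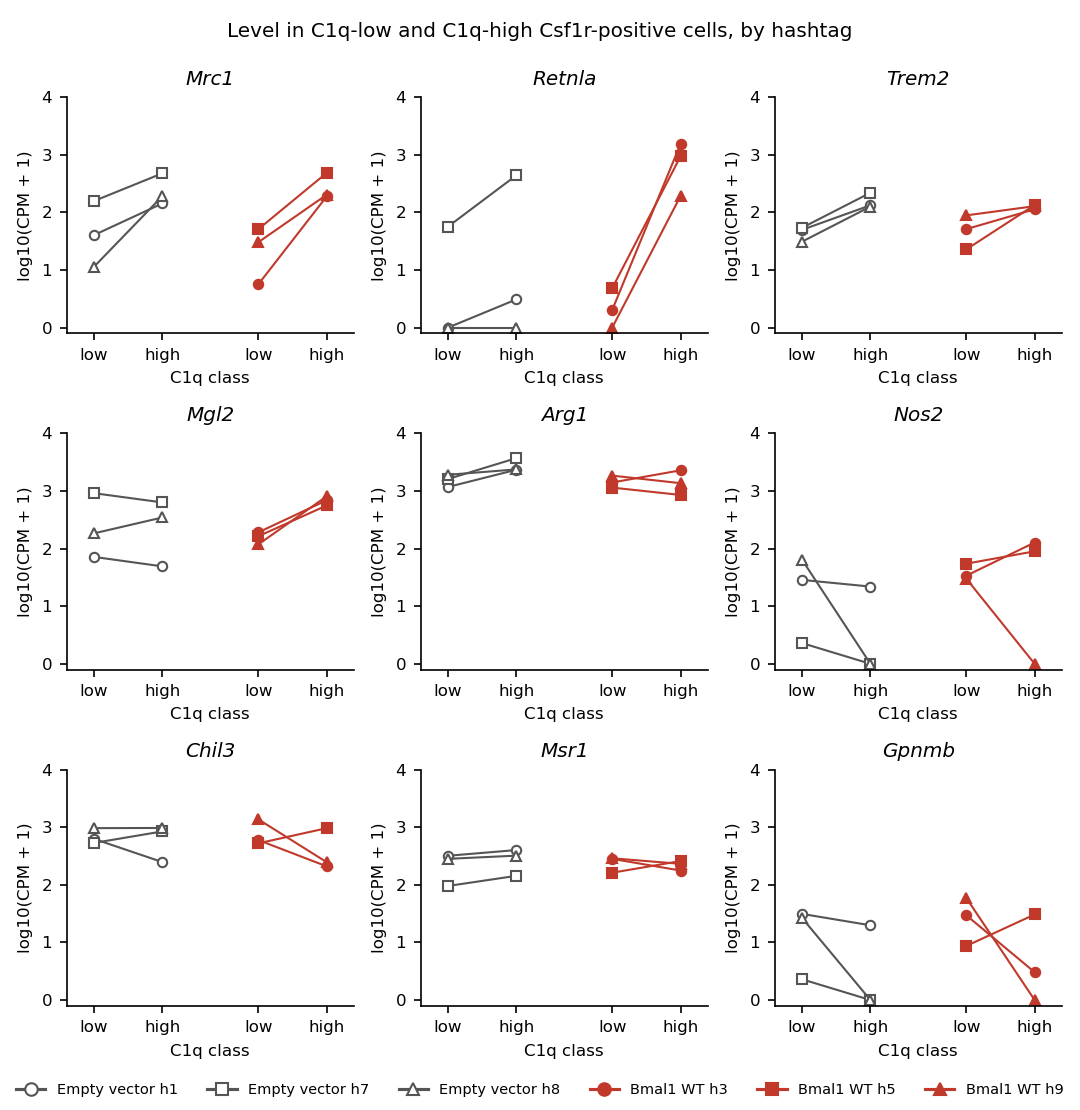
Level of each gene as log10(CPM + 1) in the C1q-low and C1q-high Csf1r-positive cells of each hashtag, with a line joining the classes of 1 hashtag (open grey symbols for Empty vector, filled red symbols for Bmal1 WT). Mrc1 and Trem2 rise from low to high in 6 of 6 hashtags, Retnla lies at 0 in both classes of Empty vector h8, and Mgl2 rises in every Bmal1 WT hashtag but only in h8 of Empty vector.

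The other 5 genes did not pass. Without a filter on genes Arg1, Chil3 and Gpnmb were called, as were Gpnmb without Bmal1 WT h5 and Chil3 without h7 and h5. Arg1 (chr10:24915221-24927484, minus strand) was at 1169.5, 1609 and 1905 CPM in the C1q-low cells of Empty vector h1, h7 and h8 and at 2330.0, 3707 and 2363 CPM in their C1q-high cells. In Bmal1 WT h3, h5 and h9 the values were 1401, 1141 and 1842 CPM against 2277, 850.2 and 1361 CPM. Its C1q-high level was the higher in 4 of 6 hashtags, with h5 and h9 of Bmal1 WT going the other way, and the log2 difference was 0.40 ± 0.20 (SE, edgeR adjusted p = 0.254). Nos2 (chr11:78920787-78960254, plus strand) stood at 27.6, 1.29 and 63.2 CPM in the C1q-low cells of Empty vector and at 32.8, 53.6 and 29.2 CPM in those of Bmal1 WT. It gave 0.01 ± 0.61 (SE), a difference whose sign turned in several alternative settings. Msr1 (chr8:39581685-39642673, minus strand), a scavenger receptor for modified lipoproteins, gave 0.12 ± 0.17 (SE), and its sign turned as well.

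Chil3 (chr3:106147554-106167564, minus strand) encodes the chitinase-like protein Ym1, and its reads may be shared with the near-identical Chil4. Its C1q-high cells stood at 247, 842 and 966 CPM in Empty vector h1, h7 and h8 and at 208, 958 and 246 CPM in Bmal1 WT h3, h5 and h9, against 624, 531 and 959 CPM and 596, 522 and 1368 CPM in C1q-low cells. They were higher in 3 hashtags and lower in the other 3, with a log2 difference of -0.57 ± 0.37 (SE, edgeR adjusted p = 0.394). Gpnmb (chr6:49036546-49070929, plus strand), a glycoprotein of melanosomes and lysosomes, was at 30.2, 1.29 and 25.6 CPM in the C1q-low cells of Empty vector and at 28.7, 7.66 and 58.4 CPM in those of Bmal1 WT. Its C1q-high cells had 18.8, 0 and 0 CPM in Empty vector and 2.04, 29.5 and 0 CPM in Bmal1 WT. They were lower in 5 of 6 hashtags, h5 being the exception, and the log2 difference was -1.26 ± 0.69 (SE, edgeR adjusted p = 0.301). It rested on 30 UMIs in all C1q-high cells, and Gpnmb entered this test through its C1q-low cells.

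Other genes of the same programs moved in both directions between the C1q classes, and their counts stand beside the 3.08% of all genes called higher and 6.55% called lower. Of 16 measured genes on an alternative activation list, 6 were higher and 4 lower in C1q-high cells, with a median log2 difference of -0.04 beside -0.06 over all genes tested. Among those higher were Ccl24, a chemokine for eosinophils (2.50 ± 0.31, edgeR adjusted p = 7.82e-04), Egr2, a transcription factor (0.89 ± 0.17), Pdcd1lg2, a ligand of PD-1 (1.25 ± 0.25), and Ear2, a ribonuclease (1.74 ± 0.36). Of 12 arginine metabolism genes, the arginine transporter Slc7a2 was the only one called higher (1.302 ± 0.304), and 3 were lower, Gch1, Arg2 and Sat1. Arg2 had 135 of its 144 UMIs in C1q-low cells and entered the test through them, so its call is given without weight. The lipid and lysosome list that accompanies Trem2 had 3 of 18 genes higher, the lipoprotein Apoe (2.11 ± 0.28), the lipase Lpl (1.14 ± 0.18) and the cholesterol exporter Abca1 (1.495 ± 0.315), and 2 lower, with Fabp5 among them (-0.67 ± 0.17). On the resident or perivascular list, Pf4 was higher (2.62 ± 0.72) and F13a1 lower (-1.29 ± 0.28), among 5 genes measured. Pf4 had 121 of its 204 UMIs in C1q-high cells and too few in C1q-low cells to be tested there. Pf4 thus entered the test through C1q-high cells, so its call is given without weight. Of 19 inflammatory genes Cd38 (1.31 ± 0.31) and Cxcl9 (1.18 ± 0.32) were called, both higher, a share near the 9.63% of all genes that were called. Of 12 monocyte genes, 9 were lower and 0 higher, with a median of -1.35, among them Itga4 (-0.91 ± 0.12), Plac8 (-1.78 ± 0.26) and Vcan (-2.12 ± 0.33). In C1q-high cells alone, 9 of these 12 monocyte genes had enough UMIs to be tested. So had 13 of the 16 alternative activation genes, 7 of the 12 arginine genes and 18 of the 19 inflammatory genes. The remaining genes of these lists entered the test through C1q-low cells, and any call among them is given without weight. The list counts and medians above include them, and apart from Arg2 they are not named here. All errors in this paragraph are SE over 6 hashtags.

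Markers of other cells were measured beside these differences. The summed level of 9 NK cell markers, among them Tyrobp, which macrophages also express, ranged over hashtags from 874 to 1272 CPM in C1q-high and from 1138 to 1756 CPM in C1q-low cells. That of 6 neutrophil markers reached 2895 CPM in a C1q-high Bmal1 WT hashtag, against at most 89.1 CPM in C1q-high Empty vector and 371 CPM in C1q-low cells. Mmp9, 1 of the 6, was also a leading gene of the macrophage or monocyte-like cluster 22, and its part in the sum was not measured. The 11 T cell markers ranged from 3.30 to 513 CPM in C1q-high and from 22.3 to 198 CPM in C1q-low cells, and 7 fibroblast markers reached 891 CPM in a C1q-low Empty vector hashtag and at most 12.3 CPM in C1q-high cells. The summed level of 9 dendritic cell markers ranged over hashtags from 91.9 to 234 CPM in C1q-high Empty vector cells and from 62.0 to 385 CPM in those of Bmal1 WT, against 202 to 365 CPM and 159 to 357 CPM in C1q-low cells. Siglech and Fscn1 were at 0 in C1q-high cells. Of 15 lymphoid, fibroblast and melanoma markers, 12 were detected in C1q-high cells, at 13.2 to 148 CPM in Empty vector and 8.15 to 205 CPM in Bmal1 WT, and the B cell markers Cd79a and Ms4a1 were among those at 0. In C1q-low cells 15 of 15 were detected, at 49.1 to 792 CPM in Empty vector and 30.9 to 85.5 CPM in Bmal1 WT. The part of these cells in the differences was tested only by leaving out cells with those 15 markers, or the dendritic cell-like clusters. In cells without a UMI of any of those 15 genes, Mrc1 and Trem2 still differed by 2.78 and 1.61 on the log2 scale. Retnla differed by 5.25 there, again given without weight.

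The genes were also compared cell by cell for detection together. The expected number of cells with both genes was summed over hashtags and C1q classes from the product of the shares, and no test was made, since cells of a hashtag are not replicates. Of the 84 Csf1r-positive cells with a Nos2 UMI, 80 also held Arg1 (95.2%), against 42.0 expected, although only 49.4% of all Csf1r-positive cells held Arg1. In hashtags with more than 1 Nos2 cell, Arg1 was found in 24 of 24 (Empty vector h1), 15 of 16 (Empty vector h8), 21 of 23 (Bmal1 WT h3), 14 of 14 (Bmal1 WT h5) and 6 of 6 (Bmal1 WT h9). When each cell was thinned to 2000 UMIs, 45 of 49 Nos2 cells held Arg1 against 19.9 expected. Arg1 and Nos2 were thus detected in the same cells in both groups.

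Nos2 and Gpnmb shared 30 cells against 6.9995 expected, a ratio of 4.29 that was the highest of the 36 pairs, and 4.38 after thinning. Gpnmb cells also held Arg1 more often than expected (63 of 72 cells, against 34.9). Mrc1, by contrast, was seldom found with either: it shared 5 cells with Nos2 (12.1 expected) and 3 with Gpnmb (9.04 expected). After thinning these were 1 cell against 4.15 and 1 against 2.38, numbers too small to order.

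Mrc1 and Mgl2 occurred together in 78 cells against 49.9 expected, and in 27 against 18.4 after thinning. Trem2 was found with Mrc1 in 79 cells against 70.3 expected and with Mgl2 in 71 against 70.6. Of 32 Retnla cells, 25 held Mgl2, 25 held Trem2 and 22 held Mrc1, against 17.3, 19.2 and 16.4 expected. After thinning 18 Retnla cells were left, and 8 of them held Mgl2 against 7.41 expected, 9 held Trem2 against 5.18 and 7 held Mrc1 against 5.95, numbers too small to order. Mgl2 was found less often than expected with Chil3 (37 cells against 74.2, and 13 against 35.8 after thinning) and with Msr1 (68 against 102, and 13 against 30.8 after thinning). Chil3 and Msr1 themselves shared 375 cells against 302 expected. Of the cells with 2000 or more UMIs, thinned to that number, 35.4% of C1q-high and 13.9% of C1q-low Empty vector cells held 3 or more of the 9 genes, and 52.1% and 16.5% in Bmal1 WT.

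**Figure D3:**
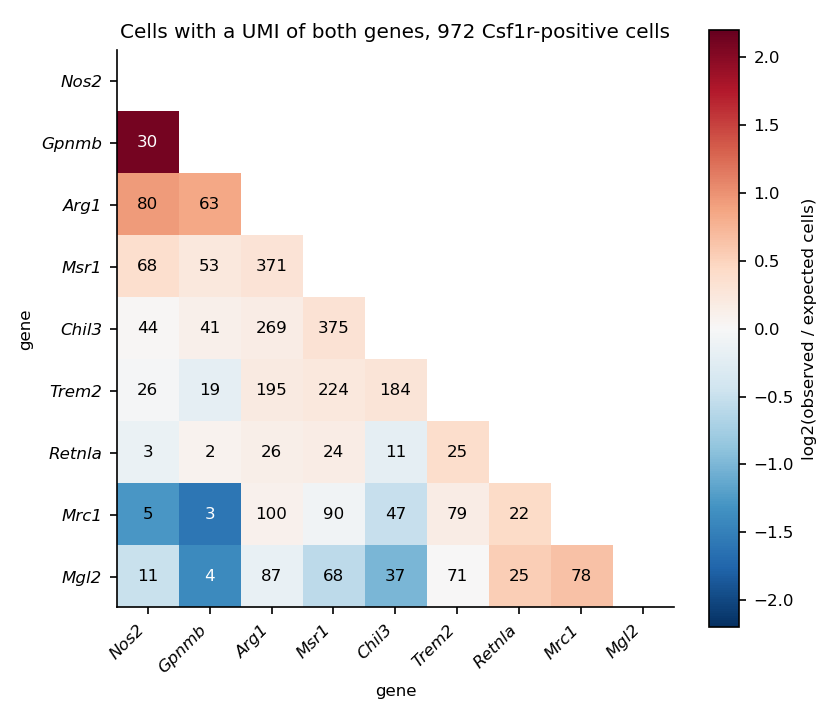
Co-detection of each pair of genes in the 972 Csf1r-positive cells, where the number in a square is the count of cells with a UMI of both genes and the colour is log2 of that count over the expected count. Nos2 with Gpnmb (30 cells) and Nos2 with Arg1 (80 cells) stand above expectation, and Mrc1 with Gpnmb (3 cells), Mgl2 with Gpnmb (4 cells) and Mrc1 with Nos2 (5 cells) stand below it.

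Whether Bmal1 status went with a different level of these genes was examined over the 3 hashtags of each group. Over all Csf1r-positive cells, 0 of the 9 genes passed, as did 0 of 7773 genes by edgeR's quasi-likelihood test (percent called 0; 918 genes had an unadjusted p under 0.05, and DESeq2 called 38). The groups overlapped in CPM for each of the 9 genes, while 18.2% of all genes did not overlap (7.87% higher and 10.3% lower in Bmal1 WT). Arg1 was at 1347, 2199 and 1970 CPM in Empty vector and 1577, 1006 and 1700 CPM in Bmal1 WT, a log2 difference of -0.36 ± 0.24 (SE, n = 3 hashtags per group, edgeR adjusted p = 0.562). Retnla had the largest fitted difference, 2.53 ± 1.52 (SE, edgeR adjusted p = 0.541), and without Empty vector h7 it was 10.1 (edgeR adjusted p = 0.115), the highest of 16 alternatives that began at 1.33. The log2 differences of the other 7 lay between -0.19 and 0.75.

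For several genes the hashtags of 1 group differed widely. Mgl2 in Csf1r-positive cells was at 67.2, 833 and 206 CPM in Empty vector h1, h7 and h8, and at 289, 346 and 320 CPM in Bmal1 WT. Mrc1 was at 55.0, 246 and 36.0 CPM in Empty vector and 41.3, 251 and 79.9 CPM in Bmal1 WT, so that h7 and h5 stood above the other hashtags of their groups. Nos2 and Gpnmb were lowest in h7, which held 1 UMI of each in 98 cells.

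The share of Csf1r-positive cells that were C1q-high was 11.6%, 25.5% and 10.2% in Empty vector h1, h7 and h8 and 14.4%, 37.4% and 22.2% in Bmal1 WT h3, h5 and h9. The means were 15.8% ± 8.47 and 24.7% ± 11.7 (SD, n = 3 hashtags each). The groups overlapped, and the 2-sided exact permutation test gave p = 0.40, where 0.10 is the smallest p that 3 against 3 allows. The difference of 8.90 percentage points was 2.56 without Bmal1 WT h5, 14.0 without Bmal1 WT h3 and 13.8 without Empty vector h7, in which case the groups did not overlap (exact permutation p = 0.20). Near the limit, 24 cells had 3 or 4 C1q UMIs and 20 had 5 to 7.

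Within C1q-high cells Arg1 was lower in all 3 Bmal1 WT hashtags (2277, 850.2 and 1361 CPM) than in the 3 of Empty vector (2330.0, 3707 and 2363 CPM). It was the only 1 of the 9 genes whose groups did not overlap, by a gap between h3 and h1 that was inside their counting intervals (2145 to 2415 and 2195 to 2471 CPM), against 19% of all genes tested (8.05% higher and 10.9% lower in Bmal1 WT). The log2 difference of -0.90 ± 0.34 (SE) had an unadjusted p of 0.0257 and did not pass after adjustment (edgeR adjusted p = 0.354). Without the cell with the most Arg1 in each hashtag the groups overlapped, with h8 of Empty vector at 1812 CPM and h3 of Bmal1 WT at 1954 CPM. Nos2 had 10, 0 and 0 UMIs in Empty vector h1, h7 and h8 and 62, 60 and 0 in Bmal1 WT h3, h5 and h9. The groups overlapped at 0, where h9 allows up to 12.3 CPM, and the log2 difference of 3.10 ± 1.13 did not pass (edgeR adjusted p = 0.343). Nos2 entered this test through Bmal1 WT cells, so its difference and p are given without weight. Retnla differed by 2.66 ± 1.36 (SE, edgeR adjusted p = 0.438) with h7 of Empty vector (439 CPM) above h9 of Bmal1 WT (193 CPM). Without h7 its difference was 9.18 (edgeR adjusted p = 0.0425). Empty vector then held 1 Retnla UMI in h1 and 0 in h8. Retnla thus entered this test through Bmal1 WT cells, and its p is given without weight. Mgl2 differed by 1.01 ± 0.65, Trem2 by -0.34 ± 0.26, Msr1 by -0.39 ± 0.35, Chil3 by -0.52 ± 0.63 and Mrc1 by 0.14 ± 0.50 (SE, n = 3 hashtags per group). Gpnmb had 9 UMIs in Empty vector and 21 in Bmal1 WT and was not tested. By edgeR, 0 of 3726 genes were called (475 at an unadjusted p under 0.05, and 7 by DESeq2).

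In C1q-low cells no member tested passed. Arg1 differed by -0.10 ± 0.22, Mgl2 by -1.27 ± 0.78 and Mrc1 by -1.35 ± 1.03 (SE, n = 3 hashtags per group, edgeR adjusted p of 0.939, 0.654 and 0.724). The groups overlapped for each of the 9 genes, while 15.8% of all genes did not overlap (6.81% higher and 8.98% lower in Bmal1 WT). Retnla, with 43 UMIs in Empty vector and 5 in Bmal1 WT, was not tested. Again 0 of 7147 genes were called (666 at an unadjusted p under 0.05, and 5 by DESeq2). None of the 6 pathway lists held a called gene in any of these 3 comparisons, and in C1q-high cells their medians ran from -0.78 for the monocyte list to 0.14 for the lipid and lysosome list, beside -0.07 over all genes.

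**Figure D4:**
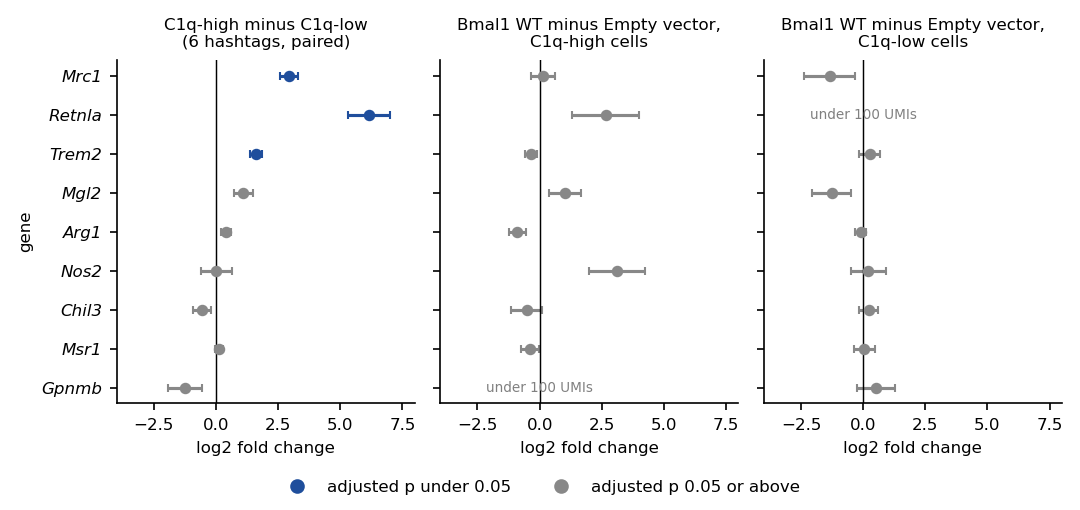
Fitted log2 fold changes with their SE for the 9 genes in 3 comparisons: C1q-high against C1q-low cells over 6 hashtags, and Bmal1 WT against Empty vector in C1q-high and in C1q-low cells over 3 hashtags a group. Mrc1, Retnla and Trem2 passed an adjusted p of 0.05 in the first (blue), Retnla with 48 UMIs in C1q-low cells, and no gene did in the other panels.

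The C1q difference was then compared between the groups by an interaction term. Retnla passed, with an interaction of 6.39 ± 0.67 on the log2 scale (SE, n = 6 hashtags, edgeR adjusted p = 0.0136), and was 1 of 2 genes called of 7770 (0.0257%). With the same 48 UMIs in C1q-low cells, it entered this test too through its C1q-high UMIs, so its p is given without weight. The second was Rnase2a, a ribonuclease gene that is named here after its value was seen (6.59 ± 0.84, edgeR adjusted p = 0.0259, 325 UMIs in both classes together). The Empty vector side of this contrast rested on h7, which held 43 of 43 C1q-low and 133 of 134 C1q-high UMIs of that group. Without h7 the interaction was not called (edgeR adjusted p = 1), nor without Bmal1 WT h3 (0.243), without Bmal1 WT h9 (0.0516), without h7 and h5 together, or in cells without a UMI of the 15 other-type markers (0.247). DESeq2 gave an adjusted p of 0.297. For Mgl2 the interaction was 2.13 ± 0.41 with an unadjusted p of 2.39e-04 and an edgeR adjusted p of 0.585. It ranged from 1.49 to 3.82 over 17 alternatives and was called in 3 of them.

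Shares of cells with a UMI gave no further difference. After thinning to 2000 UMIs, which left out 10 Empty vector and 16 Bmal1 WT cells with fewer, Nos2 was detected in 2.91% ± 2.64 of Empty vector and 8.08% ± 3.42 of Bmal1 WT Csf1r-positive cells (SD, n = 3 hashtags each, 2-sided exact permutation p = 0.20, adjusted over the 9 genes 1). Unthinned, the shares were 5.39% ± 3.79 and 12.3% ± 2.95 and did not overlap (exact permutation p = 0.10, the smallest possible, adjusted 0.60). Retnla was detected in 2.51% ± 4.35 and 3.84% ± 3.81 of thinned cells. For the other 7 genes the thinned group means differed by between 0.17 and 5.598 percentage points, with exact permutation p of 0.40 or more.

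Genes with the most similar pattern over 21 clusters of at least 50 cells were sought among 12724 genes, by Pearson correlation of log2(CPM + 10). The points share libraries and differ in depth, and no test was made. Retnla was most like Rnase2a (r = 0.996), then Ptgs1 and Abcc3. Msr1 was nearest to C5ar1 (0.996), then F10 and Olr1, and Trem2 to Tfec (0.993), then Fpr2 and Gm48065. For Chil3 the nearest were Rab44 (0.988), Abcd2 and F13a1, and for Mgl2 Spint1 (0.944), Ciita and H2-DMb2. Nos2 was closest to Mmp13 (0.939), 4930430E12Rik and Rhov, and Gpnmb to Rhov (0.849), 4930430E12Rik and Nos2 itself. Mrc1 had Ocstamp (0.928), Ccl24 and C1qc, and Arg1 had Ccl12 (0.919), C3ar1 and Gpr84.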

How the data were processed

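Libraries were made with a 10x Genomics 3′ kit (v3.1), and hashtag antibodies marked the replicates. The authors deposited raw UMI counts per gene and barcode. The header of the count matrix names Cell Ranger 6.1.2, and the labels name mm10. Strand use and annotation are not given in the sources used here, and gene positions come from GENCODE M21 (GRCm38). For Bmal1 bHLH, 3 of 3 files matched the Bmal1 WT files byte for byte, and that group was not analysed here. The libraries shared 5 barcodes.

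Barcodes with at least 200 genes and at most 20% mitochondrial UMIs were kept. Hashtags were assigned by a 2-component Gaussian mixture on log counts (scikit-learn 1.9.0), and cells with no or several hashtags (93 of 1065 Csf1r-positive cells) entered no test. Cells with several hashtags were thereby left out as doublets, and no other doublet caller was run. Clusters came from scanpy 1.11.5 (2000 variable genes, 30 components, 15 neighbors, Leiden resolution 1, no batch correction) and were named from marker lists. Cluster 12 was left unnamed after its leading genes were seen. UMIs were summed per hashtag and tested with edgeR 4.0.16 (glmQLFit, glmQLFTest) for genes with at least 100 UMIs, with total UMIs as library size and Benjamini-Hochberg adjustment at 0.05. SE is the log2 difference over the root of the F statistic. C1qa, C1qb and C1qc were not tested between C1q classes. Scripts were tested on simulated data.

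All 9 members were named in every comparison, list genes by the lowest p (up to 4 a list, of which 1 is not reported here), and the 3 most similar genes by correlation. The members and lists were chosen with earlier results of these data known. Alternatives were TMM, DESeq2 1.42.0, other filters on genes and cells, other C1q limits, another hashtag rule, and leaving out each hashtag. Added after seeing the data were leaving out dendritic cell-like clusters, and leaving out h7 and h5 together.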

Additional observations from a re-analysis of the deposited data

Results flagged for a closer look

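The difference in Retnla between C1q-high and C1q-low cells was flagged because it was called in the interaction test (6.39 on the log2 scale, edgeR adjusted p = 0.0136). Retnla entered that test through its C1q-high UMIs, so its p is given without weight. The result changes when Empty vector h7 is left out, as given above.

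Csf1r-positive cells with no or several hashtags, 63 in Empty vector and 30 in Bmal1 WT, entered no comparison. In those of Bmal1 WT, Retnla was at 745 CPM (304 UMIs in 5 cells), Mrc1 at 78.4 CPM (32 UMIs in 7 cells) and Nos2 at 71.1 CPM (29 UMIs in 1 cell), with 1 cell holding 237 of the Retnla UMIs. Empty vector cells of that kind held 0 Retnla, 9 Mrc1 and 5 Nos2 UMIs. These values were picked out because they lie above the counting interval of the same cells in Empty vector. The cells belong to no replicate, each pool is from 1 library, and the difference was not tested.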

How the results depend on the processing

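Leaving out the hashtag as a block (no replicate block) lowered the number of genes called between C1q classes from 748 to 362. The calls of Mrc1, Trem2 and, given without weight, Retnla stood under it and under each of the 17 other alternatives. The number of genes called was 484 by DESeq2, 1127 without a filter on genes, 472 in cells without a UMI of other cell types, 434 without h7 and h5, and 388 to 708 without 1 hashtag. Between Bmal1 WT and Empty vector the 0 genes called became 38, 7 and 5 (all, C1q-high and C1q-low cells) by DESeq2, 14, 192 and 11 without a gene filter, and 0 to 4 in C1q-high cells without 1 hashtag. The 4 without Empty vector h7 were Retnla, Ccl12, Ly6c2 and Ms4a4c, of which Retnla entered the test through Bmal1 WT cells only. The 2 interaction calls became 83 without a gene filter, 0 in cells without a UMI of other types, 1 with the split at 1 C1q UMI per 1000, 0 without h7 and h5, and 0 to 3 without 1 hashtag (0 each without Empty vector h7, Bmal1 WT h3 or Bmal1 WT h9). The cause was not tested.

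Members whose sign turned were all uncalled in both fits. For Bmal1 WT against Empty vector in all Csf1r-positive cells, Msr1 became -0.0829 in cells without a UMI of other types, -0.22 without h7 and h5, -0.0815 by the other hashtag rule, -0.0083 with at least 2 Csf1r UMIs and -0.0216 without dendritic cell-like clusters. Mgl2 became 1.17, 0.17 and 0.34 without h7 and h5, with at least 2 Csf1r UMIs and without dendritic cell-like clusters. Chil3 became -0.0482 by the other hashtag rule, Gpnmb -0.071 with at least 2 Csf1r UMIs and Nos2 -0.015 without h7 and h5. Without 1 hashtag the ranges were -0.89 to 1.43 for Mrc1, -0.20 to 0.36 for Chil3, -0.33 to 0.30 for Msr1, -0.0332 to 0.54 for Trem2 and -0.70 to 1.23 for Mgl2. In C1q-high cells Mrc1 became -0.18 and Chil3 0.0823 with 1 C1q UMI per 1000, and Mrc1 ranged from -0.46 to 0.83 without 1 hashtag.

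In C1q-low cells Arg1 became 0.0106 without UMIs of other types and 0.0747 without h7 and h5, Nos2 -0.50 without h7 and h5 and -0.0563 with at least 2 Csf1r UMIs, Msr1 -0.0784 and -0.0548 without h7 and h5 and by the other hashtag rule, Mgl2 0.33 without h7 and h5, and Gpnmb -0.35 with at least 2 Csf1r UMIs. Their ranges without 1 hashtag were -0.29 to 0.0736 (Arg1), -0.23 to 1.15 (Nos2), -0.33 to 0.51 (Chil3), -0.30 to 0.35 (Msr1), -0.19 to 0.61 (Trem2), -0.0826 to 0.97 (Gpnmb) and -1.78 to 0.34 (Mgl2). Between C1q classes Nos2 became -1.12 by DESeq2, -0.20 without h7 and h5, -0.10 by the other hashtag rule, -0.0128 with at least 2 Csf1r UMIs and -0.0669 without dendritic cell-like clusters, and -0.80 to 0.55 without 1 hashtag. Msr1 became -0.10, -0.064 and -0.0844 without h7 and h5, with at least 2 Csf1r UMIs and without dendritic cell-like clusters. The Gpnmb interaction became -0.77 by DESeq2, -0.86 without UMIs of other types, -3.28 without h7 and h5, and -3.20 to 5.32 without 1 hashtag.

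For shares of cells with a UMI, the difference of Bmal1 WT minus Empty vector in percentage points became -4.01 (Arg1), -1.15 (Msr1) and -2.204 (Trem2) with at least 2 Csf1r UMIs, -3.18 (Arg1) and -0.621 (Msr1) by the other hashtag rule, and -0.0677 (Trem2) without a cell filter. Without 1 hashtag it ranged from -2.63 to 2.56 (Arg1), -4.24 to 6.32 (Mrc1), -0.874 to 3.84 (Retnla), -7.27 to 5.34 (Msr1), -3.66 to 4.15 (Trem2) and -2.59 to 10.8 (Mgl2). With 3 hashtags a group, an exact test cannot give p under 0.10, and C1q-high cells number 14 to 36 a hashtag, which limits the low members Nos2, Gpnmb and Retnla.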

Other observations

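The melanoma-like cluster 14 held 54.7% of all Gpnmb UMIs, with 23.1% of its 428 cells holding one, although its level there was 19.2 CPM against 104 CPM in cluster 3. The T cell-like cluster 9 (346 cells) held Arg1 at 197 CPM with 4.05% of cells positive, the next level after clusters 3, 5 and 22. Few cells carried Arg1 in T cell-like clusters: over the 6 hashtags 28 of 1428 cells held its 256 UMIs, 5 had 10 or more, and 1 cell of h1 had 85. Mrc1 and Mgl2 were also present in the dendritic cell-like cluster 20, in 28.1% and 36.4% of 121 cells, and Retnla was at 0 there.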
